A study of Mus musculus with 6 samples.

Results

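Per1, Per2, Per3, Cry1, Cry2 and Ciart are the genes for the period proteins, the cryptochromes and the protein CIART (also called CHRONO), which repress the circadian clock. Their transcript levels are described here in the lungs of smoke-exposed mice with and without SS-31, a mitochondria-targeted peptide. The 6 genes were chosen by gene symbol from the clock repressor family, with earlier results of the same contrast in these libraries known. The values that chose them were therefore their own read counts in the CS and SS-31H_CS libraries, so the differences between the groups are given for them as a description. They were fitted with all other genes, but their calls support nothing. All 6 were found among the 55573 genes of the count table and all 6 passed the filter on low counts, which 16965 genes passed.

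All animals were wild-type C57BL/6 mice aged 9 to 10 weeks, kept on a 12-h light and 12-h dark cycle, and whole lung was sequenced. The CS group (3 libraries) inhaled cigarette smoke in 75-min sessions, 2 a day, on 5 days a week over 4 weeks. The SS-31H_CS group (3 libraries) had smoke exposure together with SS-31 at 5 mg/kg once daily, described by the submitters as the high dose, and its own smoke schedule is not spelled out. No lungs without smoke and no lungs with SS-31 alone were analysed here, and the hour at which lungs were taken is not given in the sources used here. The labels do not state that each library came from a separate mouse, so every error and p-value measures only the spread between these libraries. The libraries held 15611925 to 17360052 counts each, and the lung epithelial markers Sftpc, Sftpb, Sftpa1, Ager and Scgb1a1 were present in each, with a summed level of 37329 to 69899 CPM (counts scaled to a common library size).

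In mammalian cells the activators BMAL1 (gene Arntl) and CLOCK bind E-box sequences and switch on the period, cryptochrome and Ciart genes. The period and cryptochrome proteins then return to the nucleus and shut the activators down, while casein kinases and ubiquitin ligases set how long they last. Per3 is also driven through D-box sequences by the activators DBP, TEF and HLF, and Cry1 is also held down by the REV-ERB receptors (Nr1d1 and Nr1d2), which places its transcript late in the daily order. Per1 and Per2 are in addition switched on within hours by glucocorticoids and by cAMP signals through CREB. In mouse lung, as in other organs, most of these transcripts rise and fall each day, so their level depends on the hour of collection. With no hour given for either group, a difference in hour and an effect of SS-31 cannot be told apart for any clock gene here.

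The promoters of the 3 members whose libraries did not overlap between the groups hold different motif matches, and are printed for that reason. Sequences are from RefSeq on GRCm38.p6, 5′ to 3′ on the strand of the gene, and cover the 250 bases before the annotated start. Capitals mark the E-box CACGTG, the D-box TTATGTAA and its variant TTATGCAA, searched on both strands. The table held promoters for 5 of the 6 members (not Per2), and the motifs were chosen with the sequences in view.
Per3 (chr4:151044666-151044915, minus strand): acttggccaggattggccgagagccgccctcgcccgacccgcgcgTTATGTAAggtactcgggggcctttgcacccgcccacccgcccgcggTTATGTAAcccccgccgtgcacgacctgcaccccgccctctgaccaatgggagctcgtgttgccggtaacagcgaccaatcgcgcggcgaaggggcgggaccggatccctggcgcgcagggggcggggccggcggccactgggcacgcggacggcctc
Ciart (chr3:95882229-95882478, minus strand): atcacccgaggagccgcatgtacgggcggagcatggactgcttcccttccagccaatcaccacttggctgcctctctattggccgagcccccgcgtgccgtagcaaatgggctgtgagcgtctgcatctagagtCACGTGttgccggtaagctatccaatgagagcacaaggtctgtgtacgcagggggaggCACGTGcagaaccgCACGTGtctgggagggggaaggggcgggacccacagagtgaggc
Cry1 (chr10:85185055-85185304, minus strand): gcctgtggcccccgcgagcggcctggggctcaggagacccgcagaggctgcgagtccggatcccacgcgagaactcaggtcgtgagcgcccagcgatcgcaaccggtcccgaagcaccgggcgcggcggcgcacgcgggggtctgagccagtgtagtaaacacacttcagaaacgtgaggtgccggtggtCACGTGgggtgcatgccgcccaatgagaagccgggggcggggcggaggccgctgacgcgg

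Per3 held the D-box 2 times, 205 and 158 bases before its start, and no E-box in this window. Of 32851 mouse promoters (250 bases before and 50 after the start), 0.938% held the D-box and 0.0213% (7 promoters) held it 2 or more times. Ciart held the E-box 3 times, 116, 58 and 44 bases before its start. The E-box was found in 7.15% of the promoters, and 0.594% held 2 or more. Cry1 held 1 E-box, 60 bases before its start, and 1 copy of the related sequence CACGTT (read as AACGTG on this strand), which 4.68% of the promoters held. Cry2 held CACGTT once and no CACGTG. Of the 2 annotated starts of Per1, the first had 1 E-box and 1 copy of TTATGCAA (in 0.743% of the promoters), and the second had neither. The cAMP response half-site TGACG was found once in each of the 2 Per1 promoters, in Cry1 and in Cry2, and in 20.8% of all promoters. The full site TGACGTCA (1.79% of promoters) and the REV-ERB core TAGGTCA (2.61%) were in none of these windows. A match is a description of the letters and not a measured binding site.

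**Figure D1:**
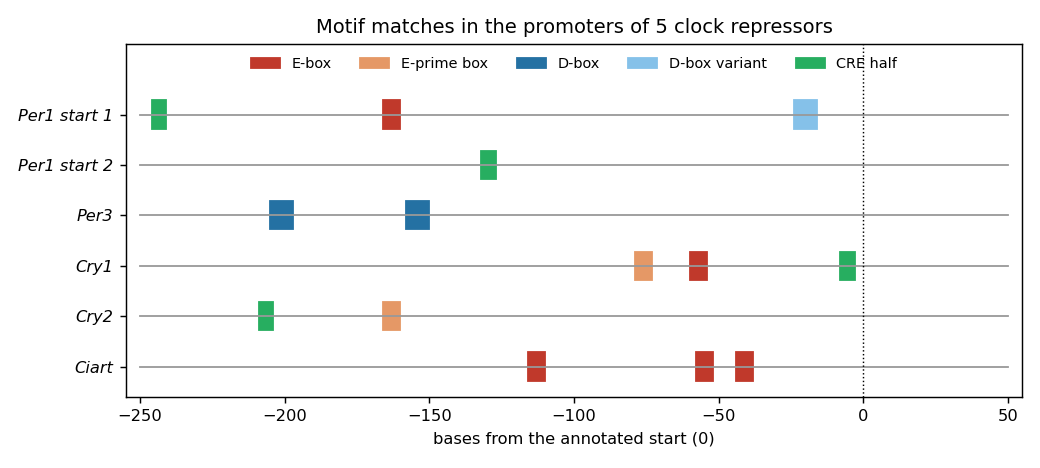
Positions of motif matches (coloured boxes, both strands) in the promoters of Per1 (2 annotated starts), Per3, Cry1, Cry2 and Ciart, by distance in bases from the annotated start at 0. Per3 alone of these 5 genes holds the D-box TTATGTAA, 2 times, and Ciart holds the E-box CACGTG 3 times.

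Per3 differed most between the groups. The gene (ENSMUSG00000028957, GRCm38 chromosome 4, 151003652 to 151044665, minus strand) encodes the period protein that is least needed for rhythm itself and whose transcript swings widely in peripheral organs. Per3 measured 49.3, 44.3 and 34.0 CPM without the peptide (CS replicates 1 to 3) and 148, 135 and 186 CPM with it (SS-31H_CS replicates 1 to 3). The lowest library with SS-31 lay far above the highest without it. The mean was 42.5 ± 7.84 CPM in CS and 156 ± 26.7 CPM with SS-31 (SD, n = 3), a 3.67-fold difference. The log2 fold change, SS-31H_CS over CS, was 1.88 (SE 0.18). Whole lung was sequenced, so a change in the number of cells that carry a transcript and a change in transcript per cell cannot be told apart for any gene here.

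The other period genes stood at higher levels and differed less. Per1 (ENSMUSG00000020893, chromosome 11, 69095217 to 69109960, plus strand), the period gene that responds fastest to outside signals, stood at 201, 151 and 221 CPM in CS and at 143, 149 and 189 CPM in SS-31H_CS. The groups overlapped, with CS replicate 2 among the SS-31H_CS libraries. The means were 191 ± 35.7 and 161 ± 24.7 CPM (SD, n = 3), with a log2 fold change of -0.25 (SE 0.17). It was -0.40 without CS replicate 2 and -0.14 without CS replicate 3.

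Per2, whose protein together with PER1 carries most of the feedback (ENSMUSG00000055866, chromosome 1, 91415982 to 91459324, minus strand), stood at 109, 119 and 140 CPM in CS and at 138, 121 and 172 CPM in SS-31H_CS. CS replicate 3 lay above 2 of the 3 SS-31H_CS libraries. The means were 122 ± 15.8 and 144 ± 26.1 CPM (SD, n = 3), with a log2 fold change of 0.23 (SE 0.16). Without SS-31H_CS replicate 3, the library highest in Per2, it was 0.08.

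Cry1 and Cry2 encode the cryptochromes, the strongest repressors of BMAL1 and CLOCK. Cry1 (ENSMUSG00000020038, chromosome 10, 85131700 to 85185064, minus strand) stood at 45.3, 43.5 and 53.7 CPM in CS and at 28.8, 31.0 and 32.2 CPM in SS-31H_CS. All SS-31H_CS libraries lay below all CS libraries. Its mean was 47.5 ± 5.45 CPM in CS and 30.6 ± 1.72 CPM with SS-31 (SD, n = 3), with a log2 fold change of -0.63 (SE 0.12).

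Cry2 (ENSMUSG00000068742, chromosome 2, 92403646 to 92434043, minus strand) stood at 108, 91.9 and 97.9 CPM in CS and at 102, 90.2 and 116 CPM in SS-31H_CS. The groups were interleaved, with means of 99.3 ± 8.12 and 103 ± 13.1 CPM (SD, n = 3). The log2 fold change was 0.05 (SE 0.13), and its sign turned without CS replicate 2 (-0.01) or without SS-31H_CS replicate 3 (-0.05). Cry2 was the only member whose exons overlap another annotated gene, D930015M05Rik on the opposite strand, over 4.67% of its exon length. The strand setting of the counting is not given in the sources used here, so reads of the pair could not be separated.

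Ciart (ENSMUSG00000038550, chromosome 3, 95878503 to 95882251, minus strand) encodes a repressor that binds BMAL1 and works beside the cryptochromes. Ciart stood at 14.9, 18.5 and 16.4 CPM in CS and at 22.7, 20.4 and 24.8 CPM in SS-31H_CS. The groups did not overlap, though SS-31H_CS replicate 2 and CS replicate 2 lay close together. The means were 16.6 ± 1.80 and 22.6 ± 2.24 CPM (SD, n = 3), with a log2 fold change of 0.45 (SE 0.14). Ciart had the fewest reads of the 6, 252 to 422 counts per library, so counting alone contributed an error of about 5.98% in CS and 5.13% in SS-31H_CS, against a spread between libraries of 10.9% and 9.88%. For Per1 counting contributed 1.77% in CS against a spread of 18.7%, and for Per3 3.73% against 18.4%. For Cry1 in SS-31H_CS, counting contributed 4.41% against a spread of 5.6%.

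**Figure D2:**
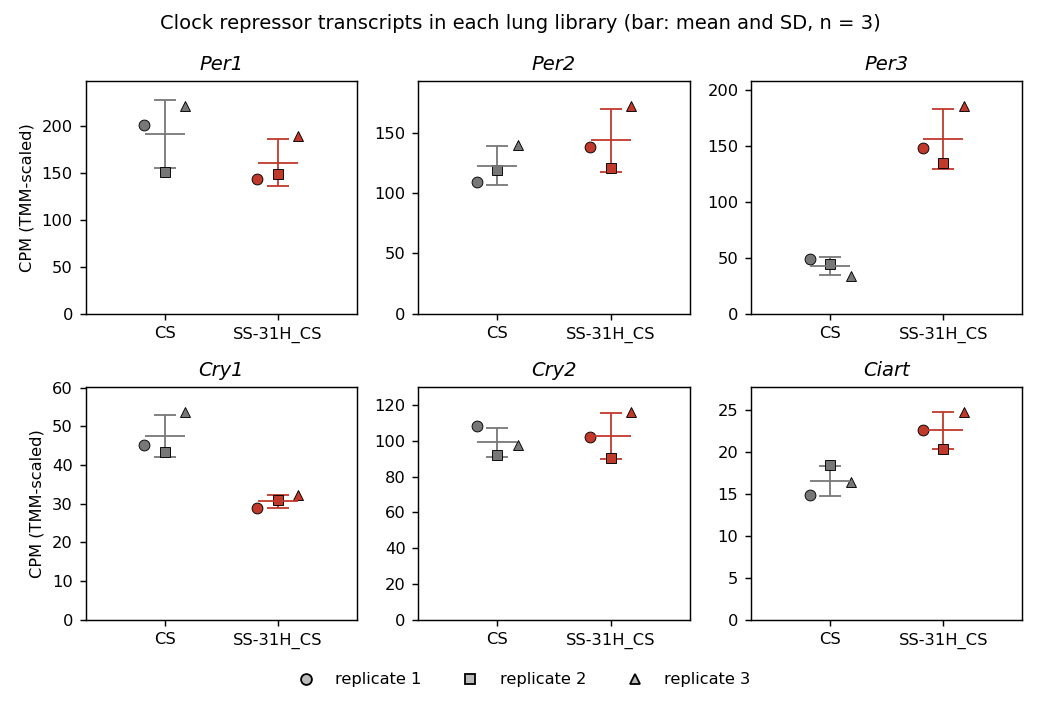
Level of each clock repressor in CPM (vertical axes from 0, scaled per gene) in the 3 CS (grey) and 3 SS-31H_CS (red) libraries, one symbol per replicate number, with the group mean and SD. Per3, Ciart and Cry1 do not overlap between groups, while Per1, Per2 and Cry2 do.

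Counted over the 6 members, 2 (Per3 and Ciart) lay higher with SS-31 without overlap and 1 (Cry1) lay lower. Over all 16965 genes tested, the groups did not overlap in 13.6% in the higher and in 12.4% in the lower direction. The edgeR quasi-likelihood test over the whole table, with a threshold of 0.05 on the Benjamini-Hochberg adjusted p, passed 1 member as higher (Per3) and 0 as lower, where 0.0707% of all genes passed as higher and 0.0825% as lower. DESeq2 passed 2 members (Per3 and Cry1), where 5.74% of the genes passed in either direction. The members were picked with this contrast known, so these counts add no evidence about the family. The median log2 fold change of the 6 members was 0.14 against 0.01 over all genes tested, with 4 positive and 2 negative values. Per3 passed edgeR's threshold without CS replicate 3, where its log2 fold change was 1.73, and missed it without any 1 of the other 5 libraries, where it was 1.73 to 1.99.

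The make-up of the period pool differed between the groups. Levels of different genes were compared in FPKM, which divides by gene length. In CS the order of mean levels was Per1 at 33.1 ± 5.38, Per2 at 20.5 ± 2.17, Cry2 at 15.4 ± 1.25, Cry1 at 13.9 ± 1.19, Ciart at 7.18 ± 0.902 and Per3 at 4.35 ± 0.884 FPKM (SD, n = 3). Only the neighbours Cry2 and Cry1 overlapped in that order. In SS-31H_CS the order was Per1 at 29.0 ± 4.19, Per2 at 24.9 ± 4.09, Cry2 at 16.5 ± 1.79, Per3 at 16.5 ± 2.56, Ciart at 10.2 ± 0.801 and Cry1 at 9.34 ± 0.61 FPKM. There the ranges of Per1 and Per2, of Cry2 and Per3, and of Ciart and Cry1 overlapped. Per3 was thus the lowest of the 6 in each CS library and among the middle levels in each SS-31H_CS library.

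Within each library, Per3 made up 8.65%, 8.90% and 5.31% of the summed Per1, Per2 and Per3 FPKM in CS and 23.8%, 22.9% and 23.5% in SS-31H_CS. The SS-31H_CS libraries agreed closely in this share although their Per3 level ran from 14.7 to 19.4 FPKM. Per1 made up 60%, 52% and 58.8% in CS and 39.5%, 43.3% and 40.7% in SS-31H_CS. The share of Per2 was 35.4% ± 3.91 in CS and 35.4% ± 1.51 in SS-31H_CS (SD, n = 3). Because all 3 shares are parts of the same sum, a higher share of Per3 lowers the summed share of Per1 and Per2.

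The summed period level was 57.9 ± 5.65 FPKM in CS and 70.4 ± 10.5 FPKM in SS-31H_CS, and the summed cryptochrome level 29.3 ± 1.38 and 25.9 ± 1.98 FPKM (SD, n = 3). The ratio of the period sum to the cryptochrome sum was 1.94, 1.88 and 2.11 in CS and 2.61, 2.60 and 2.93 in SS-31H_CS, without overlap. The ratio of Cry1 to Cry2 was 0.794, 0.895 and 1.04 in CS and 0.536, 0.650 and 0.523 in SS-31H_CS. In CS replicate 3 alone, Cry1 lay above Cry2.

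**Figure D3:**
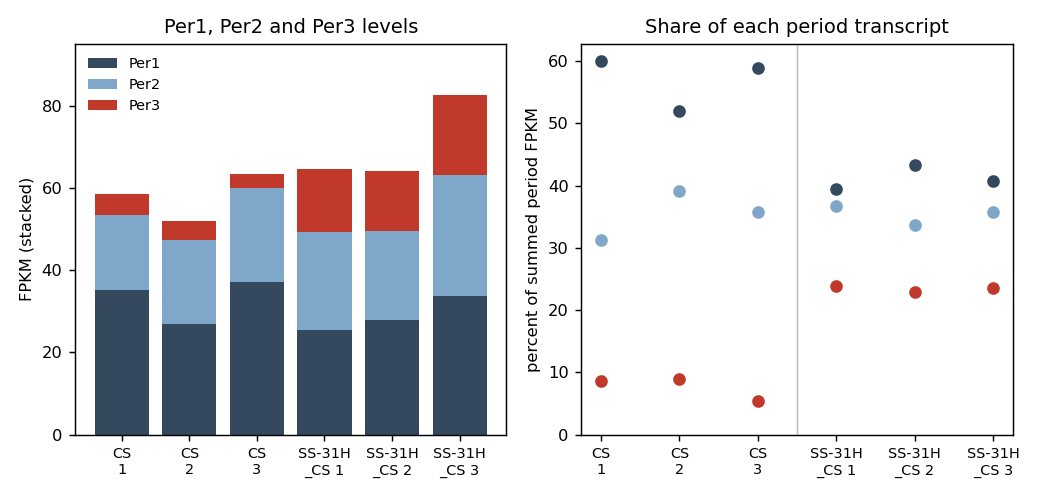
Left, Per1, Per2 and Per3 levels stacked in FPKM for each of the 6 libraries. Right, the percent of that sum held by each transcript in the same colours, with Per3 (red) at 5.31% to 8.90% in CS and 22.9% to 23.8% in SS-31H_CS.

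The members did not move as a block across single libraries. SS-31H_CS replicate 3 was the highest of its group in all 6 members. CS replicate 3 was the highest of its group in Per1, Per2 and Cry1 and the lowest in Per3. On centred log2 CPM (each gene's mean over the 6 libraries set to 0), Per3 covered a range of 2.45, against 0.90 for Cry1, 0.73 for Ciart, 0.66 for Per2, 0.62 for Per1 and 0.37 for Cry2.

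Glucocorticoid-responsive genes, to which Per1 and Per2 can belong, had their highest mean level in CS replicate 3, though not every gene did. The mean centred log2 level of 12 such genes (Per1 and Per2 left out) was 0.18, 0.13 and 1.30 in CS replicates 1, 2 and 3, and -0.53, -0.58 and -0.51 in SS-31H_CS. Fkbp5, a chaperone gene that glucocorticoids induce, stood at 80.7, 114 and 345 CPM in CS and at 39.1, 38.9 and 31.3 CPM with SS-31 (log2 fold change -2.30, adjusted p = 0.0994). The cell cycle inhibitor gene Cdkn1a stood at 101, 134 and 436 CPM in CS and at 44.2, 44.2 and 44.0 CPM with SS-31 (-2.34, adjusted p = 0.0994). Tsc22d3, named after its values were seen, was lowest of its group in CS replicate 3. It stood at 372, 366 and 315 CPM in CS and at 261, 258 and 289 CPM with SS-31 (-0.38, adjusted p = 0.172).

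The kinase gene Sgk1 (-0.95, adjusted p = 0.0728) and the transcription factor gene Klf9 (-0.62, adjusted p = 0.120) were lower in all 3 SS-31H_CS libraries. Of the 12 genes, edgeR passed 0, DESeq2 passed 7 as lower and voom 0 (10 were lower at an unadjusted edgeR p under 0.05). Over the whole table, 3081 of 16965 genes had an unadjusted edgeR p under 0.05, and DESeq2 passed 5.74%, in either direction. The fold change was below 0 on the log2 scale in 12 of the 12 genes, with a median of -1.03. Per1 at 221 CPM in CS replicate 3 was the highest of the 6 libraries, but CS replicate 1 was close, at 201 CPM. The part of glucocorticoid-responsive expression in the Per1 and Per2 values was not tested.

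Of 12 immediate-early genes that CREB drives, 2 lay higher and 1 lower with SS-31 without overlap between the groups. Over all genes tested, 13.6% lay higher and 12.4% lower without overlap. By test, edgeR passed 0 of the 12, DESeq2 passed 1 as lower and voom 0 (unadjusted edgeR p under 0.05: 2 higher, 1 lower), with a median of 0.00. Such an unadjusted p was found for 3081 of all 16965 genes tested. Atf3, a stress-induced factor, stood at 13.0, 12.7 and 44.6 CPM in CS and at 10.0, 9.78 and 8.47 CPM with SS-31 (-1.31, adjusted p = 0.211). Nr4a1, an orphan receptor gene, stood at 41.2, 43.3 and 45.8 CPM in CS and at 89.0, 49.3 and 54.9 CPM with SS-31 (0.57, adjusted p = 0.224). The mean centred log2 level of the 12 genes was -0.18, -0.26 and 0.34 in CS and 0.07, -0.06 and 0.08 in SS-31H_CS. That of Per1 was 0.21, -0.20 and 0.35 in CS and -0.27, -0.22 and 0.12 in SS-31H_CS. Both were highest in CS replicate 3, but Per1 was lowest in SS-31H_CS replicate 1. Per2 was highest in SS-31H_CS replicate 3, at 0.39. The part of CREB-driven expression in the Per1 and Per2 values was not tested.

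**Figure D4:**
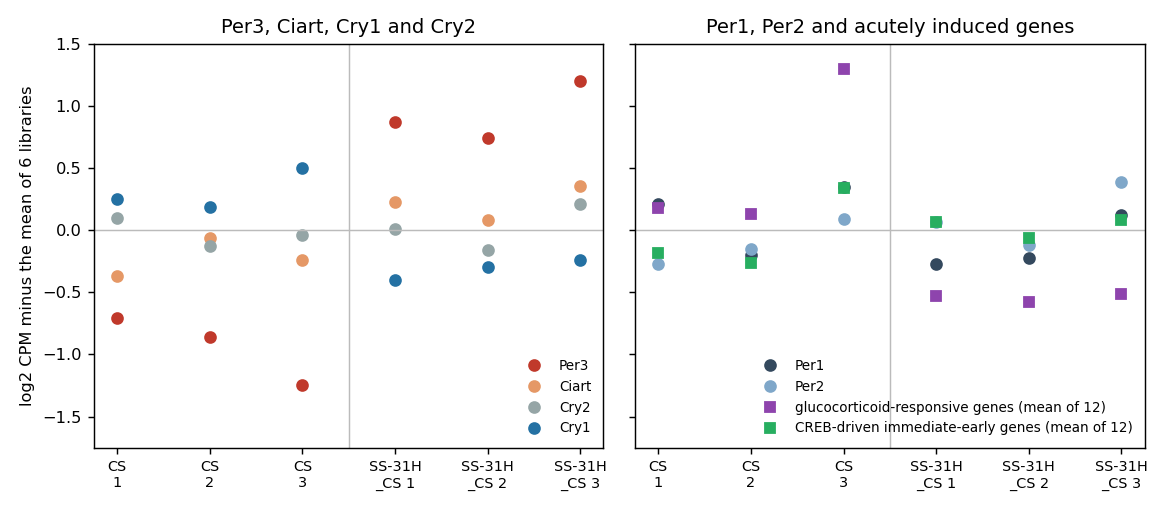
Log2 CPM minus each gene's mean over the 6 libraries. Left, Per3, Ciart, Cry2 and Cry1, with Per3 and Cry1 on opposite sides of 0 in every library. Right, Per1 and Per2 with the mean of 12 glucocorticoid-responsive and 12 CREB-driven genes, the former at 1.30 in CS replicate 3 and at or below -0.51 in SS-31H_CS.

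Upstream of the repressors, 3 genes of the activator and receptor loop were higher in SS-31H_CS and 1 was lower, among 10 tested of 11. The test was edgeR's, with Benjamini-Hochberg adjustment over all genes, on lists chosen with earlier results of these data known. Arntl, which encodes BMAL1, fell from 20.1, 24.1 and 29.7 CPM in CS to 4.61, 6.17 and 6.29 CPM with SS-31 (-2.11, adjusted p = 0.0207). The REV-ERB genes Nr1d1 (2.47, adjusted p = 0.0467) and Nr1d2 (2.04, adjusted p = 0.00734) were higher in SS-31H_CS. Bhlhe41, which encodes the E-box repressor DEC2, was higher as well (1.25, adjusted p = 0.0467). Clock, named after its values were seen, stood at 62.9, 66.2 and 75.9 CPM in CS and at 38.2, 41.1 and 40.4 CPM with SS-31 (-0.78, adjusted p = 0.0520). DESeq2 passed 3 genes of this list as higher and 3 as lower, and voom passed 2. Over all genes, DESeq2 passed 5.74% in either direction and voom passed 6 genes. The list's median was 0.39.

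Of the 4 genes for factors that bind the D-box, 2 rose: the activators Dbp, from 6.37, 6.19 and 4.08 to 67.3, 74.3 and 101 CPM (3.86, adjusted p = 0.00191), and Hlf (1.20, adjusted p = 0.0467). The third activator, Tef, stood at 243, 219 and 245 CPM in CS and at 445, 349 and 510 CPM with SS-31 (0.88, adjusted p = 0.0800). Nfil3, the repressor that binds the same D-box, stood at 26.7, 21.5 and 29.0 CPM in CS and at 11.9, 10.2 and 6.35 CPM with SS-31 (-1.44, adjusted p = 0.0746). Tef and Nfil3 were named after their values were seen. DESeq2 passed 3 of these 4 genes as higher and 1 as lower, and voom passed 1. Per3, whose promoter above carries the D-box 2 times, differed less than Dbp: the ratio of Per3 to Dbp FPKM was 2.41, 2.23 and 2.60 in CS and 0.683, 0.565 and 0.575 in SS-31H_CS. The part of the D-box factors in the Per3 values was not tested.

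The ratio of Per3 to Arntl FPKM was 1.42 ± 0.514 in CS and 21.8 ± 4.22 in SS-31H_CS, and that of Cry1 to Arntl 4.41 ± 0.586 and 12.3 ± 1.6 (SD, n = 3). Cry1 lay lower with SS-31 in the same direction as Arntl, but by less. All 6 pathway genes past the threshold, 5 higher and 1 lower, are named above. The count of 5 was 4 without CS replicate 3 and 1 or 2 without any other single library, and the count of 1 was 3 without CS replicate 3 and 0 without any other.

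No gene that acts on the period and cryptochrome proteins, in the 3 lists tested, passed the threshold. Over all genes tested, only 0.0707% passed as higher and 0.0825% as lower, so 0 in lists of 12 genes does not set them apart. Among 12 kinase and phosphatase genes, which mark the proteins for decay or protect them, edgeR, DESeq2 and voom each passed 0, and 0 had an unadjusted edgeR p under 0.05 (median -0.06). The lowest p-values were those of the phosphatase gene Ppp1ca (-0.53, SE 0.29) and the casein kinase 2 gene Csnk2b (-0.18, SE 0.10). Ppp1ca had few reads, at 33 to 75 counts per library, and its groups overlapped. The casein kinase 1 genes Csnk1d (-0.07, SE 0.11) and Csnk1e (-0.15, SE 0.11), the main kinases of the period proteins, were named after their values were seen.

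Among 12 ubiquitin ligase and deubiquitinase genes edgeR, DESeq2 and voom each passed 0 (unadjusted edgeR p under 0.05: 1 higher, 3 lower), with a median of -0.08. Such an unadjusted p was found for 3081 of all 16965 genes tested. Usp2, a deubiquitinase gene, stood at 13.9, 12.6 and 14.3 CPM in CS and at 18.6, 17.1 and 27.6 CPM with SS-31 (0.63, adjusted p = 0.174), and the value of the ligase scaffold gene Cul1 was -0.30 (adjusted p = 0.192). Among 12 partners of the nuclear repressor complex edgeR, DESeq2 and voom each passed 0 (unadjusted edgeR p under 0.05: 0), with a median of -0.05. The importin gene Kpnb1 (-0.34, adjusted p = 0.295) and Timeless (-0.26, adjusted p = 0.338) had the lowest p-values there.

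**Figure D5:**
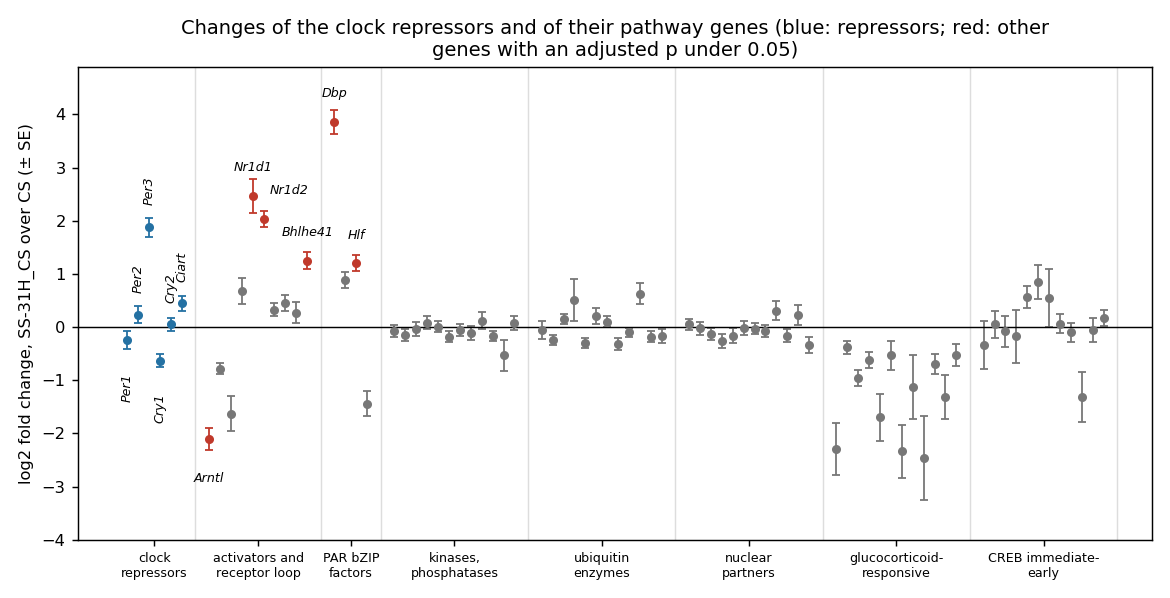
Log2 fold change, SS-31H_CS over CS, with its SE for the 6 clock repressors (blue, given as a description) and for each tested gene of the 7 pathway lists (red where the adjusted p was under 0.05, grey otherwise). Per3 at 1.88 lies between Bhlhe41 and the REV-ERB genes, and the kinases, ubiquitin enzymes and nuclear partners run from -0.53 (Ppp1ca) to 0.63 (Usp2).

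Genes with the most similar profiles were sought by the root mean square distance between centred log2 CPM values over the 6 libraries, among the 15755 genes whose mean CPM was 1 or more. The nearest to Per3 were Atp6v1b1 (distance 0.16), Ky (0.20) and Fbxl13 (0.20). Other clock genes were looked up after their values were seen. Of these Nr1d2 was nearest to Per3, at 0.20. Tef was at 0.54, Nr1d1 at 0.64, Dbp at 0.99, Clock at 1.35, Nfil3 at 1.73 and Arntl at 2.01. Serpinb9 (0.04), Itga7 (0.06) and Akr1b8 (0.07) were nearest to Cry1. Of the clock genes looked up likewise, Clock was at 0.09 and the others at 0.53 (Nfil3) to 2.26 (Dbp). Ciart lay nearest to Inha (0.03), Mettl27 (0.06) and Mpv17l (0.07). For the members that varied little, the nearest were Sdc4 (0.04), Cd276 (0.07) and Gm10145 (0.07) to Per1, Gm10074 (0.02), Polr2h (0.05) and Chchd6 (0.06) to Per2, and Sf3b2 (0.04), Elovl1 (0.04) and C8g (0.05) to Cry2. Among the members themselves, Per2 and Ciart, and Per2 and Cry2, were the closest pairs, both at 0.18, and Per3 and Cry1 the farthest, at 1.28. With 6 libraries many genes lie near any profile, and a small distance says nothing of shared function.

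Summed levels of some cell type markers lay apart between the groups, though no single marker passed edgeR's threshold. Over all genes tested, single genes lay apart in 13.6% in the higher and in 12.4% in the lower direction. All 10 ciliated cell markers had a positive log2 fold change (median 1.08, edgeR and voom passed 0, DESeq2 passed 9, and 10 had an unadjusted edgeR p under 0.05), and their summed level was 373 to 554 CPM in CS and 714 to 1093 CPM with SS-31. Of 8 alveolar macrophage markers 7 had a negative value (edgeR and voom passed 0, DESeq2 passed 3, and 4 had an unadjusted edgeR p under 0.05), with a sum of 1654 to 2032 and 769 to 1176 CPM. Most of that sum was Chil3, at 1222 to 1629 CPM in CS and 429 to 794 CPM with SS-31. Marco, Chil3, Siglecf and Mrc1 lay lower without overlap, while Ear2, Fabp4, Itgax and Car4 overlapped between the groups. Of 6 capillary endothelium markers 5 had a negative value (edgeR and voom passed 0, DESeq2 passed 2, and 3 had an unadjusted edgeR p under 0.05), with a sum of 3124 to 3395 and 2141 to 2641 CPM. Pecam1, Cdh5 and Cldn5 lay lower without overlap, while Gpihbp1, Plvap and Ednrb overlapped between the groups. Over the whole table, 3081 of 16965 genes had an unadjusted edgeR p under 0.05, and DESeq2 passed 5.74%, in either direction.

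CS replicate 3 held the lowest sums of erythroid (192 CPM, 723 to 948 elsewhere), B and plasma cell (81.8, 216 to 358 elsewhere) and T and NK cell markers (30.9, 73.9 to 169 elsewhere). The 4 adipocyte markers summed to 15.5 to 21 CPM in CS and 16 to 23.1 CPM with SS-31. No marker of these lists was at 0 in every library. Without CS replicate 3, the log2 fold changes were 1.73 for Per3, 0.44 for Ciart and -0.54 for Cry1, and without SS-31H_CS replicate 3, the library highest in ciliated cell markers, 1.73, 0.37 and -0.67. The part of cell composition in the values of the clock repressors was not tested.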

How the data were processed

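Whole-lung RNA was sequenced in 3 CS and 3 SS-31H_CS libraries. For each library the authors deposited unnormalised counts of reads on each Ensembl gene, and FPKM beside them. Per the submitters' processing notes, cutadapt 1.9.1, HISAT2 2.0.1, HTSeq 0.6.1 and GRCm38 were used. The annotation release, strand setting and filters are not given in the sources used here. Ensembl identifiers were looked up in GENCODE M21 for symbols and positions, with 55480 found and 93 not found. The deposited FPKM followed the counts and library totals to within 0.388% over 3310 genes, so they carry no further scaling.

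CPM was computed on TMM-scaled library sizes, on which 3 counts are 0.172 to 0.185 CPM. Groups were compared with edgeR 4.0.16 (quasi-likelihood test, TMM, low-count filter with minimum count 10 and minimum total 15, two-sided, Benjamini-Hochberg adjustment over 16965 genes, threshold 0.05) in R 4.3.3. Fold changes are SS-31H_CS over CS. Centred profiles used log2 CPM with a prior count of 2. DESeq2 1.42.0, limma 3.58.1 (voom, and log2 of FPKM plus 1 or 0.1), other scalings and filters, a replicate block and leaving out libraries were the alternatives. The members, gene lists and tests were chosen with earlier results of these data known. Named pathway genes were all past the threshold, otherwise the 2 lowest p-values per list (4 for the glucocorticoid list), and for each member its 3 nearest profiles. Genes named outside this rule are said to be. The edgeR, DESeq2, voom and log2 FPKM fits were each tested on simulated data in 1 setting.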

Additional observations from a re-analysis of the deposited data

How the results depend on the processing

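The direction of Per1, Per2, Per3, Cry1 and Ciart was the same in all 18 alternatives, and that of Cry2 in 15, the exceptions being the fits without CS replicate 2, without SS-31H_CS replicate 3 and without the third library of both groups (-0.06). With a single library left out, Cry2 ran from -0.05 to 0.13. The log2 fold change ran from 1.59 to 1.99 for Per3, -0.70 to -0.53 for Cry1 and 0.37 to 0.53 for Ciart, the lowest Per3 value being without the third library of both groups.

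Counts of calls depended on the fit far more than the fold changes did. Over all genes 26 passed (12 higher, 14 lower), against 24 (12 and 12) with RLE size factors, 12 (6 and 6) with library size alone, 939 by DESeq2, 648 without the low-count filter, 6 by voom, 6 and 5 on log2(FPKM + 1) and log2(FPKM + 0.1), 4 on log2(FPKM + 1) without a filter, and 1 to 15 with a single library left out. Of the members, Per3 passed in 10 of 18 alternatives. The number of members higher was 0 on log2(FPKM + 0.1), on unfiltered log2(FPKM + 1) and in 5 of the 6 fits without a single library (range 0 to 1). The number lower was 1, Cry1, by DESeq2 and without the low-count filter. Of the pathway genes 5 passed as higher, against 3 with library size alone, 2 by voom, 2 on each filtered FPKM scale, 1 on unfiltered FPKM and 1 to 4 with a single library left out. As lower 1 passed, against 12 by DESeq2, 12 without the low-count filter, 2 when 3 libraries had to reach 1 CPM, 2 with robust dispersion, 3 without the third library of both groups, 0 on each FPKM scale and 0 to 3 with a single library left out. The cause was not tested, and fits without a library also have fewer samples.

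With the replicate number as a block, 0 genes passed over the whole table, 0 of the members and 0 of the pathway genes. For libraries of equal number, the deviations from the group means correlated at 0.00721, 0.0363 and -0.0571 for numbers 1, 2 and 3. Not every library correlated best with its own number. With 3 libraries per group these correlations cannot show whether equal numbers share anything, and the labels do not say. Ciart had the fewest counts of the members, 252 to 422 per library, and counting error was largest against the spread between libraries for Cry1 in SS-31H_CS (4.41% against 5.6%).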
